A study of Mus musculus with 4 samples.

Results

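The genes described here are 10 direct transcriptional targets of the canonical Wnt pathway, measured in mouse embryonic stem cells (mESCs) that grew with an inhibitor of Gsk3: Lef1, Tcf7, Sp5, Cdx1, Axin2, Nkd1, Znrf3, Rnf43, Lgr6 and Notum. They were chosen by name, with earlier results of these data known. All 10 were found among the 37310 genes of the deposited table through their Ensembl identifiers. In the Wnt pathway, a complex of Axin, Apc, Ck1 and Gsk3 marks β-catenin for destruction. When Gsk3 is inhibited, by a Wnt signal or by a compound, β-catenin accumulates, enters the nucleus and acts with the TCF/LEF factors on target genes, many of which feed back on the pathway. In mESCs this arm supports self-renewal, to a large part by relieving the repression that Tcf7l1 exerts on pluripotency genes.

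The cells were of the JM8 line, from the C57BL6/N strain, and 2 libraries labelled wild-type were compared with 2 labelled Bmal1-/-. Bmal1 encodes a core activator of the circadian clock, which binds E-box sequences. All 4 cultures grew without feeder cells or serum in 2i + LIF medium, which held 1 µM PD0325901, an inhibitor of Mek, and 3 µM CHIR99021, the inhibitor of Gsk3. The mutant had been made in JM8 cells with CRISPR/Cas9 aimed at an exon that encodes the amino terminus, followed by isolation of clonal lines, so each label stands for 1 line and a difference between the lines other than Bmal1 cannot be told apart from the genotype. Every library was exposed to CHIR99021, and none without it was analysed here, so the values describe levels under Gsk3 inhibition and not a response to it.

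Values are read counts divided by a library factor, as the authors deposited them, and whole reads were recovered for all of them. Reads on genes ranged from 21504265 to 23329034 per library, so that 3 reads made a normalized value between 2.82 and 3.19. The mRNA of the targeted gene, listed as Arntl, stood at 678 and 733 in wild-type and at 556 and 590 in the Bmal1-/- libraries (log2 fold change −0.30, adjusted p = 0.0011, limma with Benjamini-Hochberg adjustment). Because every library held this mRNA, the genotype cannot be read from it, and the names wild-type and Bmal1-/- below are those of the labels. The authors report indel mutations in both alleles of the mutant line and no detectable Bmal1 protein by Western blot. They also report that RT-qPCR did not detect the mRNA in the mutant, unlike the reads here. The 6 naive mESC markers fixed for this check, Pou5f1 and Sox2 among them, were detected in every library, with summed values of 51628 to 54989. Of 6 fibroblast markers, 4 were at or under 3 reads in every library and Lum was at 0. The fit by limma covered 14510 genes, those whose mean value reached 10, and was made on log2(value + 1), a scale that understates the change of low genes. A log2 fold change is Bmal1-/- minus wild-type. With 2 libraries against 2, an exact permutation test of a single gene cannot give a 2-sided p below 0.333, so that p-values come only from the fit over all genes, and they measure the spread between cultures of 1 line each.

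The start sites of these genes are described first, because TCF/LEF factors bind DNA directly. The motif was chosen after the values had been seen. A single annotated start site was used per gene, that of the protein-coding transcript with the longest coding sequence. The 300 bases around it (250 before it and 50 from it onward) were searched on both strands for CTTTGAA and CTTTGAT. Both are core letters of the TCF/LEF motif. For Notum (chr11:120521920) and Rnf43 (chr11:87476589) this site lay inside the gene coordinates given below. The outermost annotated 5′ end of these genes was therefore not searched. No 2 matches in these genes overlapped. A TCF/LEF match was present in 4 of the 10 genes (Cdx1, Nkd1, Sp5 and Tcf7), beside 7.62% of 22375 mouse promoters of the same length. A match is a stretch of letters and does not show binding. The sequences below are the 250 bases before the start site in mm9, read 5′ to 3′ on the strand of the gene, with matches in capitals. Sp5, Nkd1 and Tcf7 are shown for their TCF/LEF match, and Lef1 as the gene with the largest decrease and no match. They lie at chr2:70312730-70312979 (Sp5, plus strand), chr8:91044993-91045242 (Nkd1, plus strand), chr11:52096682-52096931 (Tcf7, minus strand) and chr3:130813139-130813388 (Lef1, plus strand).
Sp5: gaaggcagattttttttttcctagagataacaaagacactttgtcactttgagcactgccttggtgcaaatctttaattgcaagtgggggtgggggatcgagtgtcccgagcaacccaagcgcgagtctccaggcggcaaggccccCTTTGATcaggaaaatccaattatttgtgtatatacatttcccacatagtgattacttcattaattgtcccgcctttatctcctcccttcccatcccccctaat
Nkd1: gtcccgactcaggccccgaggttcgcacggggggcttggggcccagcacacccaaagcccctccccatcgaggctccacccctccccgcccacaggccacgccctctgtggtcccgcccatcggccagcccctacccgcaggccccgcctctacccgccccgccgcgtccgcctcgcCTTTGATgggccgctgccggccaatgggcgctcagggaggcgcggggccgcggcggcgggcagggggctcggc
Tcf7: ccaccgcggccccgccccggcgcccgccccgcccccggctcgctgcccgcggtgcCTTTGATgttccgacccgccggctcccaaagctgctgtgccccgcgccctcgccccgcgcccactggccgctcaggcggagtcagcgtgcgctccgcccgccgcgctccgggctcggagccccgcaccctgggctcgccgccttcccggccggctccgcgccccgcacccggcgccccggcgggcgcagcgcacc
Lef1: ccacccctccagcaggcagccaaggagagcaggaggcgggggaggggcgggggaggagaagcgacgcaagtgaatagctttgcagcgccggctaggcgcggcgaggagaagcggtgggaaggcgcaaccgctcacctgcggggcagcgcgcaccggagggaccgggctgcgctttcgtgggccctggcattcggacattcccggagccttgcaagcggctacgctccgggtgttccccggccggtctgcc
The match CTTTGAT began 104 bases before the start site in Sp5, 73 in Nkd1 and 195 in Tcf7, each time on the strand of the gene. Cdx1 held matches on its own strand that began 129 bases (CTTTGAT) and 98 bases (CTTTGAA) before it. The 4 genes with a TCF/LEF match did not move one way, since Cdx1 and Nkd1 were higher and Sp5 and Tcf7 lower in the Bmal1-/- libraries.

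The 10 genes differed between the labels in both directions. Lgr6, Nkd1, Cdx1 and Znrf3 were higher in the Bmal1-/- libraries, while Lef1, Notum, Sp5, Axin2 and Tcf7 were lower. Rnf43 was too low to be tested in the main fit. Thus 9 of the 9 genes tested passed an adjusted p of 0.05, 4 upward and 5 downward. Over all genes tested, 52.6% passed (24.0% higher and 28.6% lower). The 9 genes were chosen with earlier results of these data known, so these shares are not an independent comparison. Higher genes made up 45.7% of all calls and 56.8% with equal library totals, while the 9 genes kept their directions. Their 2 groups of libraries did not overlap for any of the 9, as was the case for 76.0% of all genes tested. Past 2-fold with an adjusted p under 0.05 were only Lgr6 upward and Lef1 downward, beside 7.21% of all genes tested (5.75% higher and 1.45% lower). The median log2 fold change of the 9 genes was −0.15, compared with −0.03 over all genes tested. As the libraries are of bulk RNA, fewer cells expressing a gene and less RNA per cell cannot be told apart.

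**Figure D1:**
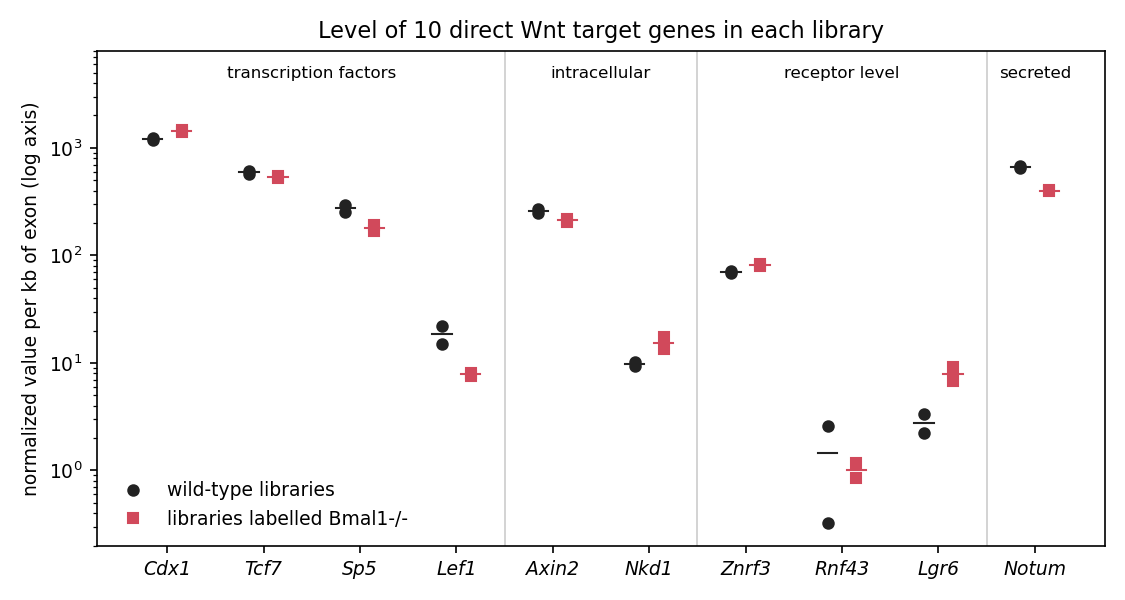
Normalized value per kb of exon (log axis) of the 10 Wnt target genes in each of the 4 libraries, 1 point per library, colour by label and short lines for the means of 2 libraries. Cdx1 was the highest gene under both labels, while in the Bmal1-/- libraries Lef1 (7.82) and Lgr6 (7.95) overlapped per kb of exon, which did not hold per kb of coding sequence (53.0 and 10.4).

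Levels between genes were compared per kilobase (kb) of annotated exon. In wild-type, Cdx1 was highest at 1209 ± 48.5 per kb (SD, n = 2), above 91.5% of the genes tested. Notum followed at 662 ± 19.7, Tcf7 at 591 ± 19.6, Sp5 at 273 ± 30.8, Axin2 at 258 ± 13.8, Znrf3 at 69.5 ± 1.96, Lef1 at 18.6 ± 4.90, Nkd1 at 9.73 ± 0.61, Lgr6 at 2.78 ± 0.77 and Rnf43 at 1.45 ± 1.59. Neighbours in this order were separate in both wild-type libraries except for Sp5 with Axin2 and Lgr6 with Rnf43, whose ranges overlapped. In the Bmal1-/- libraries the order was Cdx1 (1438 ± 29.8), Tcf7 (534 ± 14.8), Notum (401 ± 4.08), Axin2 (212 ± 10.4), Sp5 (181 ± 17.5), Znrf3 (81.2 ± 2.13), Nkd1 (15.4 ± 2.69), Lgr6 (7.95 ± 1.67), Lef1 (7.82 ± 0.46) and Rnf43 (1.01 ± 0.21). Here only Lgr6 and Lef1 overlapped as neighbours. Per kb of exon, Tcf7 and Notum exchanged places between the labels, as did Axin2 and Sp5, and Lef1 moved from above Nkd1 to below it. These exchanges depended on the length used. Per kb of coding sequence, an alternative added after the data had been seen, Tcf7 was above Notum and Axin2 above Sp5 under both labels, and in the Bmal1-/- libraries Lef1 (53.0 ± 3.11) overlapped Nkd1 (48.5 ± 8.48). Cdx1 was highest under both labels on either scale.

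The transcription factors among the targets were considered next. Lef1 (ENSMUSG00000027985, chr3:130813389-130927274, plus strand) encodes a TCF/LEF factor that is itself induced by β-catenin. Its normalized values were 191 and 131 in wild-type and 70.5 and 64.8 in the Bmal1-/- libraries. Both of the latter were below both wild-type libraries, which differed from each other by more than the Bmal1-/- libraries did. The level was 42.1% of the wild-type mean, with a log2 fold change of −1.21 (standard error 0.17, 95% interval −1.56 to −0.86, adjusted p = 4.6e-06, limma). The fold change fell short of 2-fold, at −0.94 on the log2 scale, without wild-type replicate 1, and reached −1.48 without wild-type replicate 2.

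Tcf7, which encodes the TCF/LEF factor most often linked to activation in mESCs (ENSMUSG00000000782, chr11:52065873-52096681, minus strand), stood at normalized values of 1687 and 1609 in wild-type and 1460 and 1518 in the Bmal1-/- libraries. The groups were separate by a narrow margin, with a log2 fold change of −0.15 (standard error 0.05, 95% interval −0.25 to −0.04, adjusted p = 0.022, limma). The call for Tcf7 was the least stable, since it was lost in 8 of 16 alternatives, including those without wild-type replicate 1 (adjusted p = 0.11) and without Bmal1-/- replicate 1 (adjusted p = 0.17).

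Within the family of 4 TCF/LEF genes, Tcf7 and Tcf7l1 held most of the summed level per kb of exon and Lef1 little. The share of Lef1 was 1.84% and 1.32% in wild-type and 0.753% and 0.692% in the Bmal1-/- libraries. Both shares of the second group lay below both of the first, a difference of −0.86 percentage points. Tcf7 held 50.5% and 50.6% in wild-type and 48.4% and 50.3% in the Bmal1-/- libraries, whereas Tcf7l1, the family member known as a repressor, held 45.1% and 45.5% and then 48.6% and 47.1%. The level of Tcf7l1 itself differed little, with a log2 fold change of −0.03 (adjusted p = 0.62, limma). Tcf7l2 was lower, with a log2 fold change of −0.43 (adjusted p = 0.0023, limma, lost in 4 alternatives), at shares of 2.56% and 2.66% and then 2.30% and 1.91%. Because the annotated Lef1 exons are long relative to its coding sequence, its share depended on the length used, and per kb of coding sequence it was 5.24% ± 1.17 in wild-type and 2.46% ± 0.14 in the Bmal1-/- libraries.

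Sp5 (ENSMUSG00000075304, chr2:70312980-70315786, plus strand) encodes a zinc finger factor of the Sp family that lies downstream of β-catenin. Its normalized values of 619 and 528 in wild-type contrasted with 406 and 354 in the Bmal1-/- libraries. The highest of the latter stayed below the lowest wild-type library. The log2 fold change was −0.59 (standard error 0.09, 95% interval −0.78 to −0.41, adjusted p = 1.1e-05, limma).

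Cdx1 (ENSMUSG00000024619, chr18:61178516-61195853, minus strand), a caudal-type homeobox gene of the posterior embryo, went the other way. It stood at normalized values of 2177 and 2057 in wild-type and 2479 and 2553 in the Bmal1-/- libraries, with no overlap. The log2 fold change was 0.25 (standard error 0.05, 95% interval 0.15 to 0.35, adjusted p = 1.7e-04, limma). Its paralogue Cdx2 was low and moved in the opposite direction, with 63.2 and 65.9 in wild-type against 39.5 and 37.2 (log2 fold change −0.74, limma adjusted p = 0.0043, lost in 1 alternative).

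**Figure D2:**
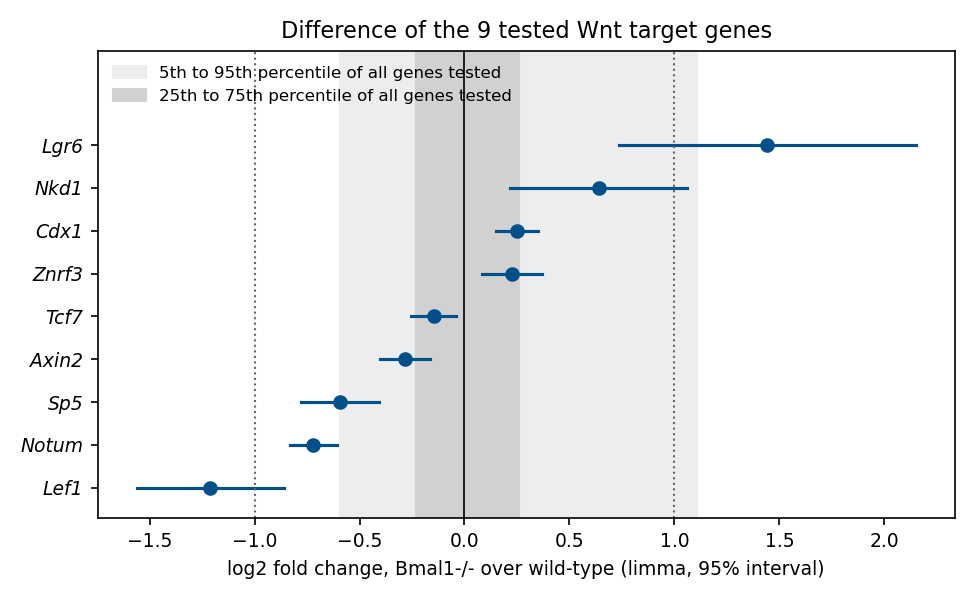
Log2 fold change (Bmal1-/- minus wild-type, limma on log2(value + 1)) of the 9 tested Wnt target genes with 95% intervals; the dark band spans the quartiles of all 14510 genes tested (−0.23 to 0.26), the light band their 5th to 95th percentiles, and the dotted lines mark 2-fold. Lef1 and Lgr6 were the only genes with a fold change beyond those lines.

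The intracellular feedback inhibitors moved in opposite directions. Axin2 (ENSMUSG00000000142, chr11:108781663-108812097, plus strand) encodes the inducible scaffold of the β-catenin destruction complex and is the usual reporter of pathway activity. Its normalized values were 1474 and 1366 in wild-type and 1205 and 1124 in the Bmal1-/- libraries. Axin2 was lower in both libraries of the second group, with a log2 fold change of −0.29 (standard error 0.06, 95% interval −0.40 to −0.17, adjusted p = 2.9e-04, limma).

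Nkd1 (ENSMUSG00000031661, chr8:91045243-91118786, plus strand), whose product binds Dishevelled and dampens the signal, was at normalized values of 45.3 and 41.4 in wild-type and 77.0 and 60.1 in the Bmal1-/- libraries. These 2 groups were separate, although the Bmal1-/- libraries differed from each other. The log2 fold change was 0.64 (standard error 0.20, 95% interval 0.22 to 1.06, adjusted p = 0.011, limma). Without Bmal1-/- replicate 1 it was 0.46 and the call was lost (adjusted p = 0.18).

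At the receptor level, Znrf3 and Rnf43 encode transmembrane E3 ligases that remove Frizzled receptors from the cell surface, and Lgr6 encodes a receptor for R-spondins, which counter those ligases. Znrf3 (ENSMUSG00000041961, chr11:5176327-5344850, minus strand) stood at normalized values of 559 and 538 in wild-type and 629 and 653 in the Bmal1-/- libraries. All values of the second group exceeded those of the first, with a log2 fold change of 0.23 (standard error 0.07, 95% interval 0.08 to 0.37, adjusted p = 0.0090, limma). The call was lost without Bmal1-/- replicate 2 (adjusted p = 0.096). Rnf43 (ENSMUSG00000034177, chr11:87476224-87549041, plus strand) was counted with 16 and 2 reads in wild-type and with 6 and 8 reads in the Bmal1-/- libraries. The wild-type range enclosed the others, so that no difference was detectable at this depth.

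Lgr6 (ENSMUSG00000042793, chr1:136882925-137001853, minus strand) was the gene with the largest increase, from a low level. It was counted with 12 and 8 reads in wild-type and with 37 and 27 reads in the Bmal1-/- libraries, or normalized values of 12.6 and 8.50 against 34.8 and 25.7. Both libraries of the second group exceeded both of the first, and the means differed 2.86-fold. On the log2 scale the difference was 1.44 (standard error 0.34, 95% interval 0.73 to 2.15, adjusted p = 0.0013, limma). With a pseudocount of 10 it was 0.97.

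Notum (ENSMUSG00000042988, chr11:120515102-120522489, minus strand) encodes a secreted enzyme that removes the lipid of Wnt proteins. Notum measured 1628 and 1560 (normalized values) in the wild-type cultures and 973 and 959 in the Bmal1-/- libraries. The replicates lay close together and the groups far apart, with 60.6% of the wild-type level left. The log2 fold change of −0.72 (standard error 0.05, 95% interval −0.83 to −0.61, adjusted p = 7.3e-10, limma) had the smallest adjusted p of the 10 genes. Both annotated genes on the opposite strand that overlap Notum also had lower values, 4732444A12Rik at 233 and 220 and then 148 and 158, and Gm11768 at 46.4 and 44.6 and then 31.0 and 32.4. The libraries were made with a stranded kit, but whether counting used the strand is not given in the sources used here. Reads of these genes may therefore not be separable. Genes that overlap Tcf7, Axin2 and Rnf43 held values of at most 14.9.

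To see whether targets differed together with a relative, 6 of the 10 genes (Lef1, Axin2, Nkd1, Sp5, Cdx1 and Lgr6) were divided by a gene of the same family, per kb of exon in the same library, and Notum and Znrf3 by Axin2. The ratio of Cdx1 to Cdx2 was 44.5 and 40.3 in wild-type and 81.2 and 88.7 in the Bmal1-/- libraries, a log2 difference of 1.00. Cdx1 itself had a log2 fold change of 0.25 and Cdx2 one of −0.74, so that most of this change lay in Cdx2. The ratio of Lgr6 to Lgr4, a related R-spondin receptor, was 0.0166 and 0.0123 and then 0.0546 and 0.0401, a log2 difference of 1.71. In both pairs the groups were separate. Lgr4 itself had a log2 fold change of −0.18 (adjusted p = 0.014, limma, lost in 9 alternatives), so that most of the change in its pair lay in Lgr6. The ratio of Lef1 to Tcf7 fell from 0.0364 and 0.0262 to 0.0156 and 0.0138. Axin2 declined slightly more than Axin1, its constitutive counterpart, with ratios of 0.499 and 0.489 and then 0.451 and 0.432. For Sp5 over Sp8 the ratios were 15.4 and 14.4 and then 13.2 and 11.7. For Nkd1 over Nkd2, which had values of 17.9 and 23.4 and then 38.5 and 30.5, the ratios of 2.68 and 1.88 and then 2.12 and 2.09 overlapped. Among the feedback genes themselves, the ratio of Notum to Axin2 changed from 2.53 and 2.61 to 1.85 and 1.95, whereas that of Znrf3 to Axin2 changed from 0.265 and 0.274 to 0.364 and 0.405. These ratios were chosen with the values known and carry no test.

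**Figure D3:**
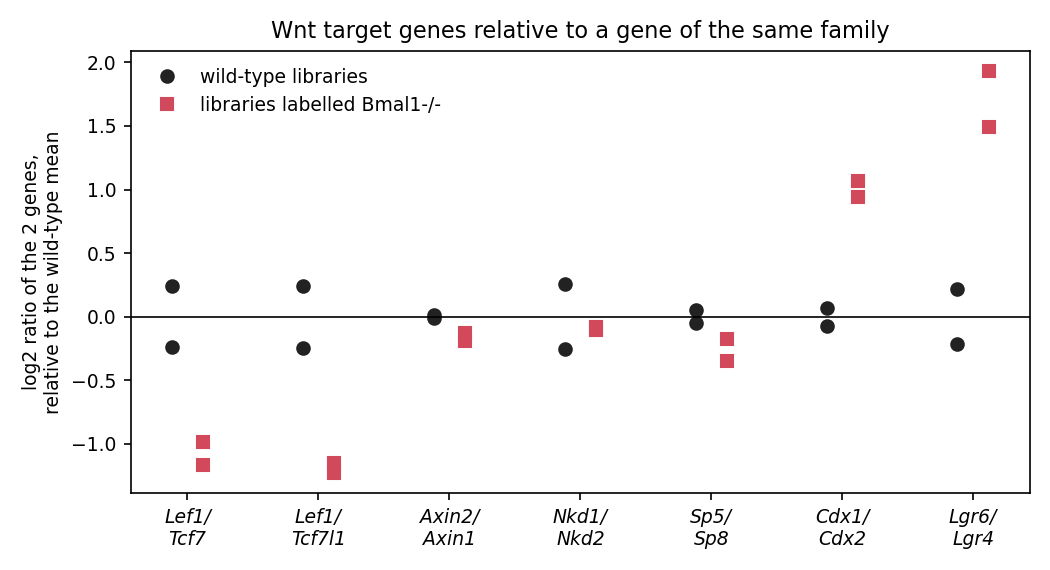
Log2 ratio of 6 Wnt target genes to a gene of the same family in the same library, relative to the wild-type mean, 1 point per library and colour by label. Cdx1/Cdx2 and Lgr6/Lgr4 were higher in both Bmal1-/- libraries, the first mostly through a lower Cdx2. Both Lef1 ratios were lower, and Nkd1/Nkd2 overlapped.

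The rest of the pathway was described with 5 lists of 68 genes, of which 59 were tested and 35 passed an adjusted p of 0.05 (59.3%, beside 52.6% of all genes tested), 24 higher and 11 lower, with a median log2 fold change of 0.08. Of 15 further β-catenin responsive genes, 10 were tested, 4 were higher and 3 lower, with a median of 0.03. The extremes of this list were Apcdd1, a membrane inhibitor of Wnt signalling (0.86, adjusted p = 4.2e-05, limma), and Cdx2. Of 14 genes of β-catenin and its destruction complex, 13 were tested, 6 were higher and 1, Axin1, was lower (−0.12, adjusted p = 0.041, limma, lost in 11 alternatives). The highest was Tnks, whose product tankyrase promotes the turnover of Axin (0.83, adjusted p = 7.3e-11, limma). Ctnnb1, which encodes β-catenin, had a log2 fold change of 0.07 (adjusted p = 0.094), Gsk3a one of −0.04 (adjusted p = 0.50) and Gsk3b one of 0.15 (adjusted p = 0.030, lost in 7 alternatives).

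The family of TCF/LEF factors with their nuclear cofactors held 12 genes, all tested, with 2 higher and 3 lower and a median log2 fold change of −0.04. Its extremes were Pygo1, a β-catenin cofactor (0.56, adjusted p = 0.0048, limma, lost in 2 alternatives), and Tcf7l2, given above. Of 20 receptors, R-spondin axis and Dishevelled genes, 17 were tested, 9 were higher and 2 lower, with a median of 0.24. Fzd4, a Frizzled receptor, was the only gene past 2-fold among the 59 tested genes of the 5 lists, beside 7.21% of all genes tested. It had 62.2 and 48.9 in wild-type against 134 and 133 (log2 fold change 1.26, adjusted p = 2.3e-06, limma). Fzd7 was the lowest called receptor gene (−0.30, adjusted p = 0.0030, limma, lost in 1 alternative). The 10 Frizzled genes are part of the receptor list, and a separate count of them was not planned. Of these, 6 were higher and 1 lower, where 24.0% and 28.6% of all genes tested were. Among 7 pluripotency genes repressed by Tcf7l1, 3 were higher and 2 lower, between Tfcp2l1 (0.40) and Tcl1 (−0.16, lost in 4 alternatives), with a median of 0.07.

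**Figure D4:**
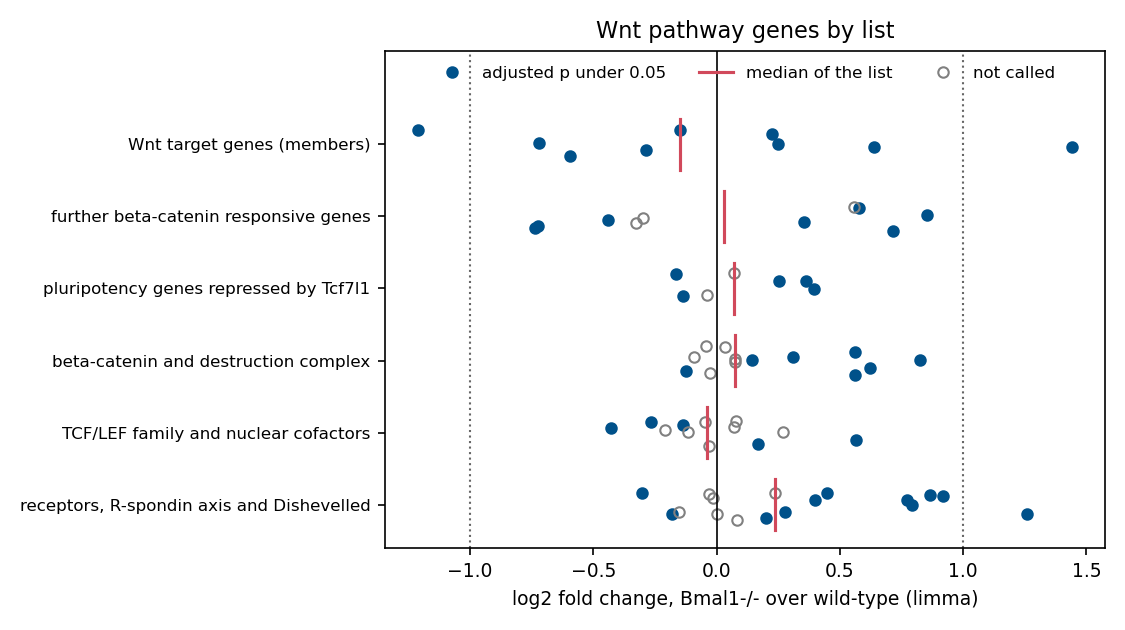
Log2 fold change (Bmal1-/- minus wild-type, limma) of the 9 tested Wnt target genes (top row) and of the tested genes of 5 Wnt pathway lists. Each point is 1 gene, with colour by call. Among the 5 lists, the receptor list had the highest median (0.24) and the TCF/LEF list the lowest (−0.04), and only Fzd4 was past 2-fold. The 9 Wnt target genes had a median of −0.15, with Lef1 and Lgr6 past 2-fold.

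Several target genes are also used by cell types that mESCs can form, and marker lists were therefore read beside them. The 6 primitive streak markers summed to 421 and 407 in wild-type and 302 and 280 in the Bmal1-/- libraries, with 2 at or under 3 reads in every library and 1 of 3 tested lower (Eomes, log2 fold change −0.83). The 6 primitive endoderm markers summed to 527 and 480 and then 644 and 617, with 2 of 3 tested higher. Lama1 held most of these sums, at 468 and 422 in wild-type and 566 and 535 in the Bmal1-/- libraries. The 6 trophoblast markers summed to 1739 and 1757 and then 929 and 909, with 1 of 4 tested higher (Ascl2) and 1 lower (Tfap2c). Tfap2c held most of this sum, and the other 5 summed to 311 and 313 in wild-type and 353 and 368 in the Bmal1-/- libraries. The 6 neural markers summed to 4130 and 3873 and then 2470 and 2286, with Fabp7 at 0 and 2 of 4 tested lower. Tubb3 made up much of these sums, at 2785 and 2512 in wild-type and 1192 and 1088 in the Bmal1-/- libraries. Nes and Olig2 were not called. The fibroblast markers summed to 69.5 and 75.4 and then 108 and 97.3. The share called over all genes tested was 52.6%. The part of such cells in the differences of the Wnt target genes was not tested.

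Of the 10 genes, 5 lie on chromosome 11 (Axin2, Tcf7, Rnf43, Znrf3 and Notum), where 1 of the 4 tested was higher and 3 lower. The median log2 fold change over the 1229 tested genes of that chromosome was −0.02, beside −0.03 over all genes tested.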

How the data were processed

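The 4 libraries are mRNA-seq of JM8 mESCs, 2 wild-type and 2 Bmal1-/-, with groups taken from the sample labels. Per the labels, the submitters' processing notes name bcl2fastq 2.18.0.12, cutadapt 1.9.1, STAR 2.5.2b and the mm9 build. The program that counted reads per gene and its strand setting are not given in the sources used here. The authors deposited a normalized signal per gene and library, the read count divided by a TMM factor of the library. Whole reads were recovered for 100% of values (tolerance 0.01 of a read), and 0 columns belonged to no sample. All 37310 identifiers were matched to GENCODE M1, from which coordinates, exon and coding lengths were taken; promoter sequence was read from the mm9 genome at its start sites.

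A mean value of 10 was required of a gene. Tests used the trended empirical Bayes fit of limma 3.58.1 (R 4.3.3) with a pseudocount of 1, no covariate, and Benjamini-Hochberg adjustment over all genes tested; calls past 2-fold used a log2 threshold of 1. The test was tried on simulated data first. Alternatives were other filters, pseudocounts and scalings, limma without the trend, a replicate block, edgeR 4.0.16 and DESeq2 1.42.0 on the whole reads, and each library left out in turn. A planned scaling and part of the promoter sequence are not reported here. The order of levels per kb of coding sequence and the trophoblast sum without Tfap2c were added after the data had been seen. Python 3.11.15 with pandas 2.3.3, numpy 2.4.6 and matplotlib 3.10.9 made the summaries and plots.

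The members, pathway lists and marker lists were chosen with earlier results of these data known, and partner ratios and promoter motifs after the values had been seen. Besides the 10 members, genes were named by a rule: the targeted gene, Tcf7l1, Tcf7l2, Ctnnb1, Gsk3a and Gsk3b, and in each pathway list every gene past 2-fold and the highest and lowest called gene. Partners and overlapping genes are named in addition to that rule, and marker genes come from the marker lists. Under both labels the sample titles carry the same experiment numbers, and whether same-numbered libraries were made together is not given. Their deviations correlated at −0.02 over genes, and the main fit used no pairing. The replicates differed by more than sampling noise (chi-square per degree of freedom 2.83 in wild-type and 1.84 in Bmal1-/-).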

Additional observations from a re-analysis of the deposited data

How the results depend on the processing

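Of 142 member values under the alternatives, 127 kept their direction and side of the threshold, 15 kept their direction but lost the call, and 0 reversed. Lef1, Sp5, Cdx1, Lgr6 and Notum were called in each alternative in which they were tested. Tcf7 lost its call in 8, Nkd1 in 4, Axin2 in 1 and Znrf3 in 2. The number of members called was 9 and stayed between 6 (limma without the trend) and 9, with 9 by edgeR and 7 by DESeq2. Members past 2-fold went from 2 to 1 with a mean of at least 100, where Lgr6 was not tested, with a pseudocount of 10, and in the range of 1 to 2 with each library left out. Genes past 2-fold went from 1046 to 318 with a mean of at least 100. Without the trend, genes called went from 7639 to 5060 and pathway genes called from 35 to 22. With each library left out, genes called ranged from 5821 to 7560, genes past 2-fold from 956 to 1115 and pathway genes called from 26 to 36. The difference in the Lef1 share was −2.23 points without gene length and −2.78 with coding length. The cause of these changes was not tested, beyond the fewer genes tested under a stricter filter.

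With the replicate block, 9 members and 7949 genes were called, although the deviations of same-numbered libraries were hardly correlated. Depth limits Rnf43, Lgr6 and Nkd1, which rest on few reads.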

Other observations

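Outside the Wnt genes, markers fixed for the check of cell identity differed within their own lists. The naive mESC markers were all called, 2 higher and 4 lower, where 52.6% of all genes tested were called, from Dppa3, a maternal and germline factor (log2 fold change −0.95), to smaller differences such as Pou5f1 (−0.13). Tfap2c, a factor of trophoblast and germ cells, had a log2 fold change of −1.36. Ascl2 of the same list had 0.58, and Krt8 (0.15) was not called. The neural markers Pax6 and Tubb3 had −1.71 and −1.22, whereas Nes (−0.08) and Olig2 (−0.16) of the same list were not called. Pax6 rested on 43 and 23 reads in wild-type and on 10 and 10 in the Bmal1-/- libraries. Sox17, a factor of the endoderm, had 1.27, and Lama1 of the same list 0.31, whereas Pdgfra (−0.13) was not called and Gata6 was too low to be tested. Few reads were counted for Sox17, 10 and 14 in wild-type and 35 and 32 in the Bmal1-/- libraries.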
